A study of Mus musculus with 11 samples.

Results

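Kupffer cells are the macrophages that live inside the blood sinusoids of the liver, and the comparison described here is their depletion by diphtheria toxin (DT) in mice fed a western diet with alcohol. It covers 8 of the 11 RNA-sequencing libraries of the series, chosen by their treatment labels: 4 whole livers from mice given serial DT injections and 4 from mice given serial saline injections. All 8 mice were male, carried the genotype Clec4f-DTR (a DT receptor under control of the Kupffer cell gene Clec4f) and ate western diet alcohol for 16 weeks from 8 weeks of age. The 2 groups thus share genotype, sex, age and diet and differ in the injected agent. The labels give no dose, number or spacing of injections, no interval between the last injection and harvest, and no hour of harvest. They do not say whether each library is 1 animal, so p-values measure the spread between these libraries, called livers below. Since both groups carry the receptor, effects of DT other than loss of Clec4f-expressing cells cannot be told apart from that loss.

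Kupffer cells clear bacteria, old red blood cells and debris from portal blood, and they are known to signal to the sinusoidal endothelial cells, stellate cells and hepatocytes that they touch. Mouse cells bind DT poorly unless they carry an introduced receptor, and the toxin that enters a cell stops its protein synthesis. When Kupffer cells die, monocytes from the blood are known to enter the empty niche and to take on Kupffer cell genes over time. In whole-liver RNA, fewer cells of a type and less RNA per cell cannot be told apart.

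Polyadenylated RNA was counted per gene, with 49481723 to 58089531 counts per DT liver and 51125431 to 56257807 per saline liver. Before the TMM scaling used below, a count of 3 corresponded to 0.0516 to 0.0606 CPM (counts scaled to a common library total). That level covers counting error only. The extraction text of the labels also describes sorted CD45-positive cells for single-cell work, but the tissue label is whole liver and hepatocyte transcripts were abundant in all 8 libraries: Alb, which encodes serum albumin, lay between 49940 and 76507 CPM. Values below are CPM scaled by TMM factors, given per liver in the order 1 to 4. Changes are log2 fold changes of DT against saline livers with their standard error (SE), from edgeR's quasi-likelihood test over the 15916 genes with enough counts. A gene "rose" or "fell" where its Benjamini-Hochberg adjusted p, the only adjusted p used below, was under 0.05, and it was otherwise not called.

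Of the genes tested, 2303 (14.5%) changed: 1514 (9.51%) rose and 789 (4.96%) fell. The rises were the larger changes, with a median log2 fold change of 1.74 and 1164 genes at 1 or more, against a median of -0.69 and 191 genes at -1 or less among the falls. All 4 DT livers lay above all 4 saline livers for 1390 genes (8.73% of those tested) and below them for 1762 (11.1%). The count depended on single livers: it was 30, 0, 1139 and 41 without saline livers 1 to 4, and 1535, 6063, 32 and 56 without DT livers 1 to 4. Without saline liver 2 the smallest adjusted p was 0.0519, 1811 genes had an adjusted p under 0.1 and 4390 an unadjusted p under 0.05 by edgeR. DESeq2 called 3825 genes and limma-voom 1221 over the 8 livers. By limma-voom the calls of 62 of the 132 called genes named below ended. Among these were Cx3cr1, Spp1, Cyp2a4 and Epcam (limma-voom adjusted p = 0.0666, 0.0742, 0.11 and 0.159). Sox4, H19, Lamc3 and Plat were others (limma-voom adjusted p = 0.236, 0.403, 0.121 and 0.112). In each of the 8 refits without 1 liver all 2303 genes kept the sign of their change. Each refit shares most livers with the fit that selected these genes, so the kept sign does not test their direction. Since no gene was called without saline liver 2, every call below ended in at least that refit. Without saline liver 1 or 4 or DT liver 3 or 4 at most 56 genes were called in all. For gene lists, counts of genes called higher and lower are also given for the refits without DT liver 1 and without DT liver 2 and for limma-voom. List counts are to be read beside the 9.51% of all genes tested that rose and the 4.96% that fell. Counts of list genes that lay higher or lower in all 4 DT livers are to be read beside 8.73% and 11.1%. A list with shares near these does not stand out from all genes. The lists share members, with 27 genes in more than 1 list, so their counts are not separate. Aldh1b1, Fabp4 and Spp1 are each counted as a rise in more than 1 list.

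The share of called genes that rose was 65.7%, against 93.0% with libraries scaled by total counts alone, 79.4% with upper quartile factors and 46.3% by limma-voom. Total-count scaling moved the median log2 fold change of all genes tested to 0.34 and upper quartile factors moved it to 0.10. The TMM factors were 0.875 to 0.911 in saline livers and 1.14, 0.942, 1.19 and 1.24 in DT livers 1 to 4, and all changes below are relative to that scaling.

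The falls and the rises were spread differently over the DT livers. Of the 789 genes that fell, 783, 753, 786 and 789 lay below all saline livers in DT livers 1 to 4, and DT liver 2 took part in 95.4% of them. Of the 1514 genes that rose, 1502, 1512 and 1512 lay above all saline livers in DT livers 1, 3 and 4, but 913 (60.3%) in DT liver 2. In DT liver 2 the median difference from the saline mean was 0.48 log2 units for genes that rose, against 1.79 to 1.99 in the other DT livers. On the leading axis of a principal component analysis of 500 genes of highest variance, which held 83.6% of that variance, DT liver 2 lay at -23.7 among the saline livers (-42.1 to -21.4), and DT livers 1, 3 and 4 lay at 48.6 to 58.7. These values used the same 8 livers as the calls, so they describe the calls and do not test them.

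**Figure D1:**
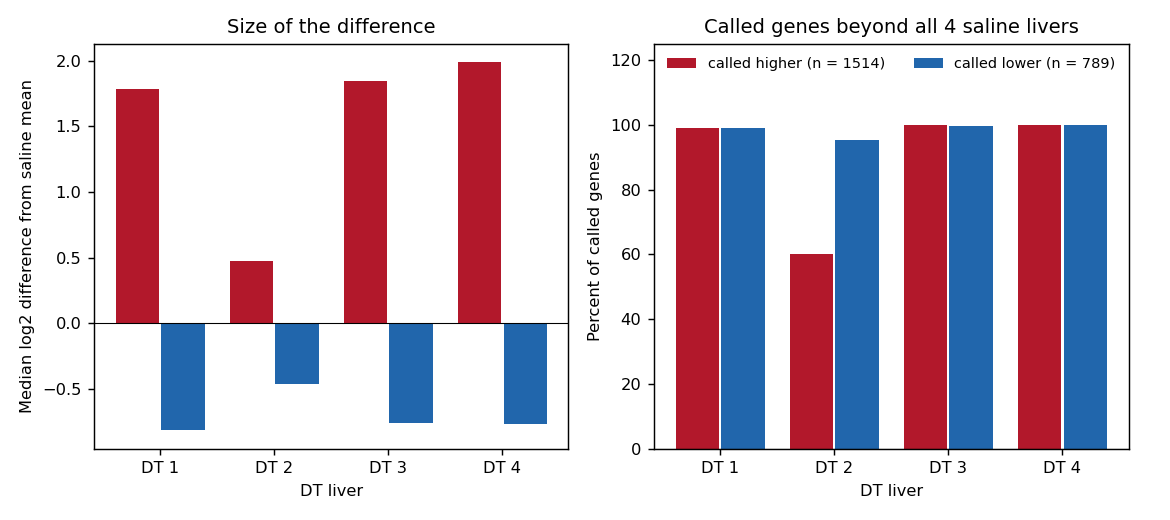
Median log2 difference from the saline mean (left) and percent of called genes beyond all 4 saline livers (right) in each DT liver, for genes called higher (red) and called lower (blue). DT liver 2 has a median of 0.48 for genes called higher and lies beyond the saline livers for 60.3% of them, against 95.4% of genes called lower.

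Other properties of the libraries also moved with the groups. None of the 9 mitochondrially encoded genes of the list was called by edgeR over the 8 livers (1 by DESeq2, 1 after the GC correction, 4 without DT liver 2 and 3 at an unadjusted p under 0.05), but mitochondrially encoded transcripts took 1.33% of counts in DT liver 1, 6.96% in DT liver 2, 4.82% and 5.62% in DT livers 3 and 4, and 6.33% to 7.53% in saline livers. In the fifth of tested genes with the lowest GC content the median difference from the saline mean was -0.61 log2 units in DT liver 1 and -0.17 to -0.07 in the other DT livers, and in the fifth with the highest it was 0.16 to 0.29. After a correction for GC content 2023 genes were called, 1533 of them among the 2303. The summed level of 5 red blood cell genes was lower in all DT livers, at 85.6 to 159.9 CPM against 182.5 to 263.0 in saline livers. Of the 5, 4 lay lower in all 4 DT livers and 2 fell, against 11.1% and 4.96% of all genes tested. The pancreas genes Prss2, Cpa1, Pnlip and Ins2 were at 0 counts in all 8 livers. Of the 8 members of their list of pancreas and gut genes, however, 2 had enough counts to be tested. Of these 1 fell and 1, at 6.21 to 9.35 CPM, was not called. The summed level of the 2 was 37.5 to 118.8 CPM in DT livers and 148.6 to 163.2 CPM in saline livers. The part of these properties in the results was not tested, except where the corrected value is given.

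Clec4f was present in every DT liver at a lower level. It was at 48.6, 52.4, 46 and 47.1 CPM in saline livers 1 to 4 and at 9.75, 15.7, 8.05 and 6.48 CPM in DT livers 1 to 4, so the groups did not overlap, and DT liver 2 kept the most. The change was -2.28 (SE 0.25, adjusted p = 0.00974), and it was called in 7 of the 8 refits without 1 liver. Vsig4, a complement receptor of tissue macrophages, was at 37.4, 39.7, 36.3 and 28 CPM in saline and 11.2, 14.3, 11.7 and 9.25 CPM in DT livers, a change of -1.61 (SE 0.16, adjusted p = 0.00903). Timd4, the receptor for phosphatidylserine on dead cells that marks long-resident Kupffer cells, was nearly absent after DT. Its values were 9.29, 11.4, 8.19 and 8.71 CPM in saline and 0.675, 0.773, 0.182 and 0.139 CPM in DT livers (log2 fold change -4.44, SE 0.53, adjusted p = 0.00983).

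The list holds 12 Kupffer cell markers: 7 fell, 5 were not called and none rose, and the 7 lay lower in all 4 DT livers without overlap. Of all genes tested, 11.1% lay lower in this way. The markers gave 0 higher and 6 lower without DT liver 1, 0 and 8 without DT liver 2 and 0 and 7 by limma-voom. The median log2 fold change of the list was -1.18, against 0.00 over all genes tested. Cd163, the scavenger receptor for hemoglobin bound to haptoglobin, was at 11.5, 21.7, 13.6 and 19.8 CPM in saline livers and at 0, 1.29, 0.121 and 0.111 CPM in DT livers. DT liver 1 had no count of Cd163 and DT liver 2 had the most of the 4. Marco, a scavenger receptor for bacteria, fell by 2.83 and the folate receptor gene Folr2 fell by 1.36 (adjusted p = 0.0195 for both). Cd5l, a secreted macrophage protein named here after its values were seen, fell by 0.63 from 209.9, 198, 217 and 152 to 137, 149, 115 and 98.5 CPM, a call that ended under total-count scaling (adjusted p = 0.127). The iron exporter gene Slc40a1 was not called (-0.46, adjusted p = 0.109), and whole liver also holds other cells that express it. In the refits without 1 liver the adjusted p of Vsig4, Timd4, Marco, Cd163 and Folr2 reached at most 0.0772 (Marco, without saline liver 2).

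**Figure D2:**
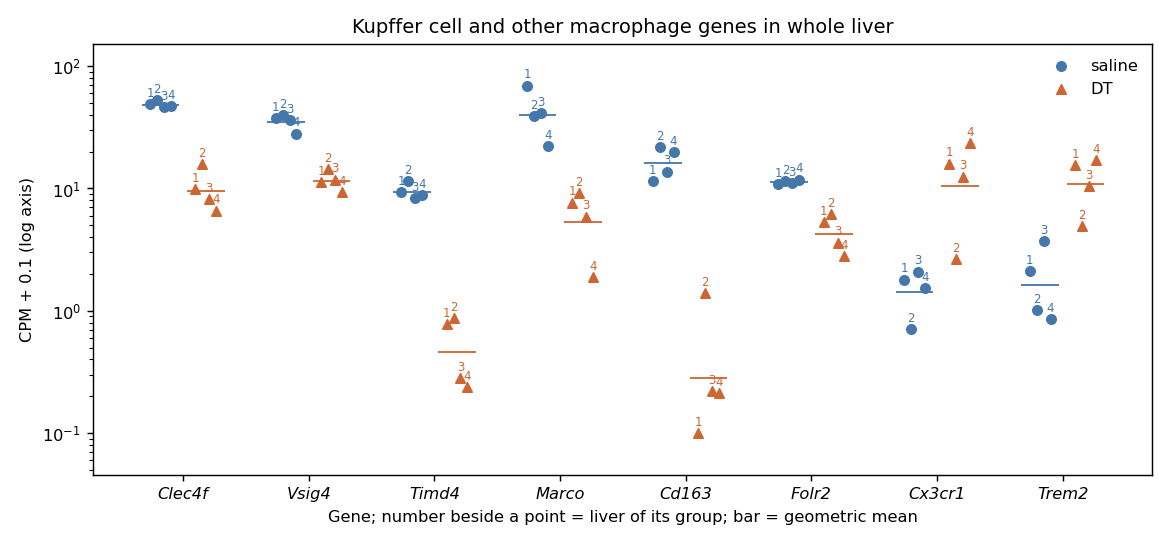
CPM + 0.1 on a log axis for 8 macrophage genes; circles are saline livers, triangles DT livers, numbers the liver within its group and bars geometric means. Clec4f, Vsig4, Timd4, Marco, Cd163 and Folr2 lie lower in all 4 DT livers, and Cx3cr1 and Trem2 lie higher.

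Of 8 transcription factors that maintain Kupffer cell identity, 1 rose, 7 were not called and none fell, with counts of 0 higher and 0 lower without DT liver 1, 1 and 1 without DT liver 2 and 1 and 0 by limma-voom and a median of -0.13 (0.20 under total-count scaling). Nr1h3, which encodes the oxysterol receptor LXR-alpha, was at 95.7, 102, 103 and 102 CPM in saline and 89.8, 113, 79.4 and 71.1 CPM in DT livers, and Maf was not called (-0.31). Both of these small differences changed sign under total-count scaling. These factors are also made by other liver cells. Id1, a target of BMP signalling, rose by 1.41 (adjusted p = 0.043), but DT liver 2, at 15 CPM, lay below saline liver 2, at 17.5 CPM. The Id1 call ended after the GC correction (adjusted p = 0.0641).

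Among macrophage genes that are not special to Kupffer cells, a few changed, in both directions. Of 14 general macrophage and monocyte genes, 2 rose, 2 fell and 10 were not called, and their median was 0.39. Of all genes tested 9.51% rose and 4.96% fell, and counts this small do not set the group apart from all genes. Counts of this group were 2 higher and 2 lower without DT liver 1, 5 and 2 without DT liver 2 and 1 and 1 by limma-voom. The fractalkine receptor gene Cx3cr1, found on monocyte-derived macrophages, was at 1.7, 0.608, 1.99 and 1.43 CPM in saline and 15.9, 2.53, 12.4 and 23.5 CPM in DT livers, higher in all 4. It rose by 3.24 (SE 0.62, adjusted p = 0.0199), as did the integrin gene Itgam by 2.03 (adjusted p = 0.0244). Adgre1, which encodes the pan-macrophage protein F4/80, fell by 0.60 and the mannose receptor gene Mrc1 by 0.72 (adjusted p = 0.0379 and 0.0366). Both of these falls ended under total-count scaling (adjusted p = 0.411 and 0.175) and after the GC correction (adjusted p = 0.0504 and 0.266). The monocyte genes Cd14 and Lyz2 were not called (1.54 and 1.04, adjusted p = 0.0601 and 0.0817).

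Of 13 genes of lipid-associated macrophages, cells known from steatotic liver that take up lipid around dying hepatocytes, 7 rose, 1 fell and 5 were not called (median 1.32). Counts of these lipid-associated genes were 4 higher and 1 lower without DT liver 1, 8 and 2 without DT liver 2 and 2 and 1 by limma-voom. The lipid-sensing receptor gene Trem2 was at 2.00, 0.911, 3.63 and 0.759 CPM in saline livers and at 15.4, 4.81, 10.4 and 17.1 CPM in DT livers, above the saline range in all 4. The secreted phosphoprotein gene Spp1 was at 19.1, 18.7, 41.1 and 17.2 CPM in saline and 294, 20.4, 187 and 328 CPM in DT livers, where DT liver 2 stayed within the saline range. Trem2 rose by 2.70, the lysosomal tetraspanin gene Cd63 by 2.86 and the integrin gene Itgax by 2.63 (adjusted p = 0.023, 0.0261 and 0.027). Spp1, Cd63 and Cd9 are also expressed by bile duct cells, whose genes rose in the same livers. Lipa, which encodes lysosomal acid lipase, fell by 0.54 but was not called after the GC correction or under total-count scaling (adjusted p = 0.354 and 0.16).

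None of the 12 T and NK cell genes, 9 B and plasma cell genes, 8 MHC class II genes, 14 interferon-response genes, 15 cytokine and inflammasome genes or 18 complement and coagulation genes was called by edgeR over the 8 livers. Without DT liver 1, 1 interferon and 1 complement or coagulation gene were lower. Without DT liver 2 the counts were larger: 8 of the MHC class II genes, 4 T and NK cell, 3 interferon, 2 B and plasma cell and 2 cytokine genes were higher. In that refit 9 complement and coagulation genes were lower, as were 2 cytokine, 1 interferon and 1 B and plasma cell genes. DESeq2 called 3, 0, 1, 4, 2 and 2 of them, and 5, 1, 4, 5, 3 and 4 had an unadjusted p under 0.05 in edgeR's test. Of the 10 neutrophil genes 4 had enough counts and none was called, with 2 of 5 higher without DT liver 2, 1 by DESeq2 and 1 at an unadjusted p under 0.05. Over all genes tested 9.51% rose, and of 10 dendritic cell genes 1 rose and 9 were not called. Dendritic cell counts were 0 higher and 0 lower without DT liver 1, 7 and 0 without DT liver 2 and 0 and 0 by limma-voom. The gene that rose, Itgae, was at 0.383, 0.217, 0.39 and 0.312 CPM in saline and 2.31, 0.30, 1.38 and 2.59 CPM in DT livers. Cd8a, of cytotoxic T cells, was at 0.553, 0.152, 0.39 and 0.179 CPM in saline and 2.11, 0.172, 1.68 and 1.31 CPM in DT livers and was not called (adjusted p = 0.0788).

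Of 20 chemokine genes 2 rose, 2 fell and 16 were not called (median 0.75). Over all genes tested 9.51% rose and 4.96% fell, so the share of chemokine genes that rose was near that of all genes. Chemokine counts were 1 higher and 1 lower without DT liver 1, 9 and 2 without DT liver 2 and 0 and 2 by limma-voom. Cx3cl1, the ligand of the receptor encoded by Cx3cr1, was at 0.51, 0.651, 1.56 and 0.447 CPM in saline and 13.3, 1.12, 9.11 and 15.1 CPM in DT livers, and it rose by 3.60 (SE 0.74, adjusted p = 0.023). Its level in DT liver 2 lay inside the saline range. Ccl21a, which guides lymphocytes and dendritic cells, rose by 3.29 (adjusted p = 0.0355), with 5.3, 1.33, 1.42 and 1.47 CPM in DT livers, highest in DT liver 1; near-identical copies of Ccl21a may share its reads. The eosinophil attractant gene Ccl24 fell by 1.92 and the B cell attractant gene Cxcl13 by 2.62 (adjusted p = 0.0231 and 0.0356), both without overlap. The Cxcl13 call ended after the GC correction (adjusted p = 0.0503). Acute-phase genes had counts of 4 higher and 0 lower without DT liver 1, 3 and 3 without DT liver 2 and 2 and 0 by limma-voom, against 2 and 0 of 15 in the full fit. Among them Lcn2, which encodes an iron-scavenging protein, was at 26.1, 12.4, 44 and 9.82 CPM in saline and 130.4, 77.8, 251 and 170.2 CPM in DT livers and rose by 2.77 (adjusted p = 0.0195). Orm2 rose by 1.56.

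**Figure D3:**
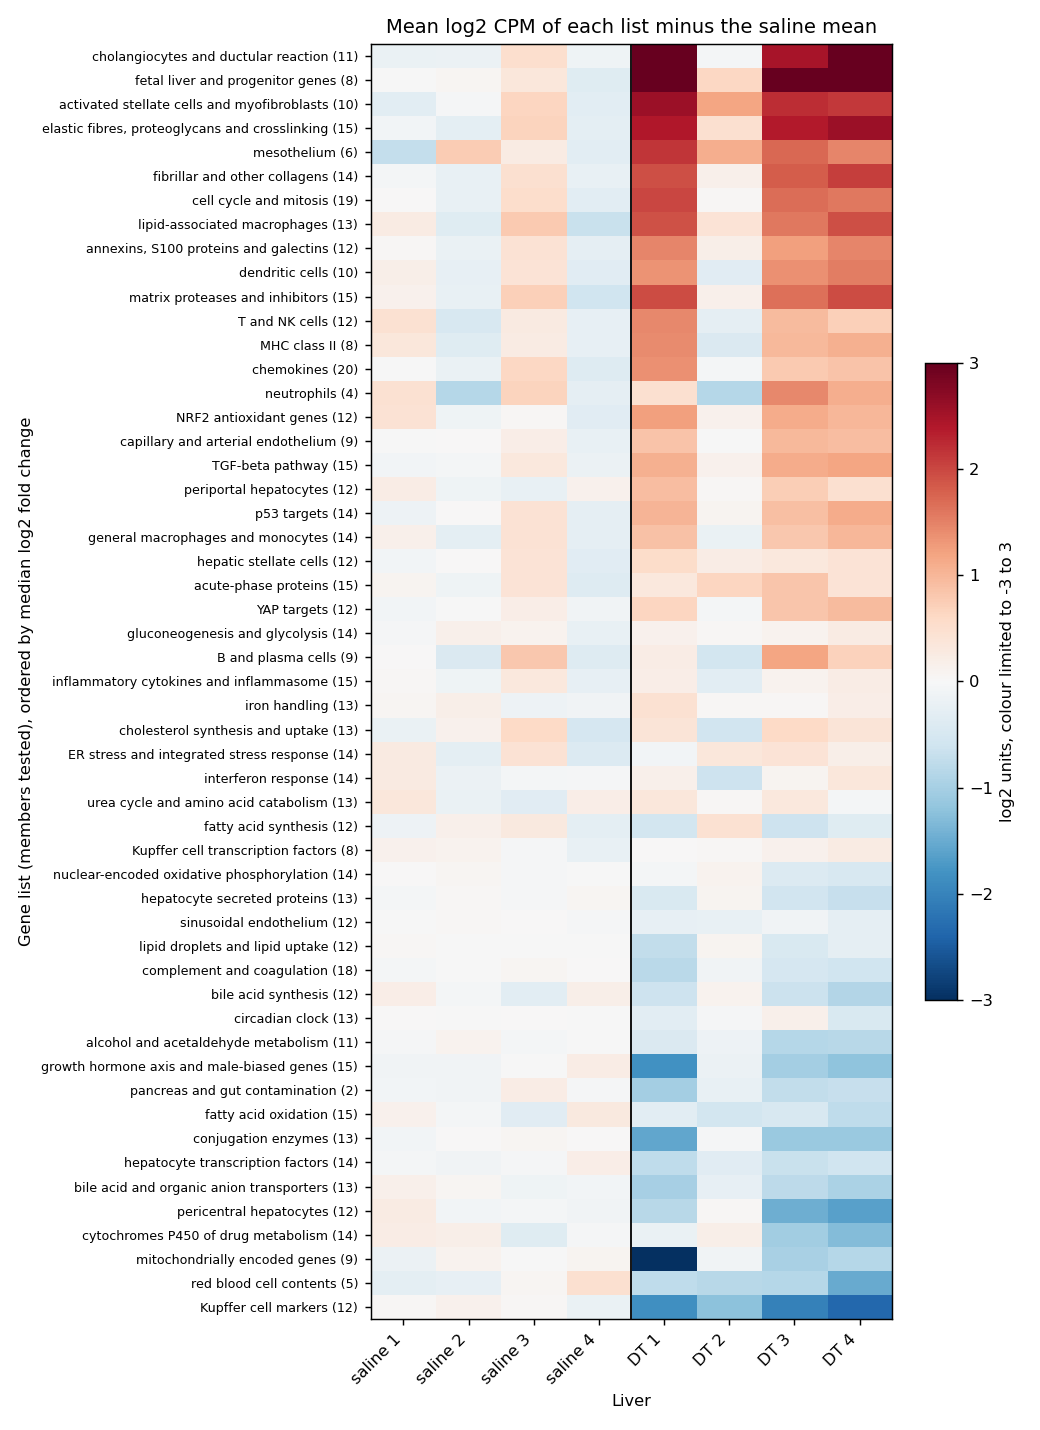
Mean log2 CPM of each of 53 gene lists minus its saline mean, by liver; red is above and blue below the saline mean, colours stop at -3 and 3, and the number of members tested is in brackets. The score of Kupffer cell markers is negative in all 4 DT livers (-2.36 to -1.22), and that of cholangiocyte genes is 2.48 to 3.16 in DT livers 1, 3 and 4 and -0.07 in DT liver 2.

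The 10 genes with the smallest p lay clear of the saline range in all 4 DT livers, DT liver 2 included. Among them were Baiap2, Nr3c2, Daam1, Vsig4, Ppara, Lmod1, Nedd4l, Clec4f and Pisd-ps1. Baiap2, a scaffold that links membrane curvature to actin, was at 25.1, 19.3, 19.6 and 17.4 CPM in saline and 78, 62.2, 81.3 and 70.1 CPM in DT livers, with no overlap. It rose by 1.84 (SE 0.14, adjusted p = 0.00501), the lowest adjusted p of all genes tested. Nr3c2, which encodes the mineralocorticoid receptor, was at 22.7, 28.5, 24.6 and 25 CPM in saline and 9.55, 9.77, 10.4 and 8.08 CPM in DT livers and fell by 1.42 (adjusted p = 0.00714). Daam1, a formin of Wnt planar polarity signalling, fell by 1.06. The ubiquitin ligase gene Nedd4l rose by 1.23, and Lmod1, an actin nucleator of smooth muscle, rose by 2.75. Lmod1 was at 0.34, 0.304, 0.312 and 0.312 CPM in saline and 2.02, 1.8, 2.94 and 1.84 CPM in DT livers. Pisd-ps1 is a pseudogene whose reads may come from related copies, so its rise of 2.49 is uncertain. Each of these 9 genes was called in 7 of the 8 refits without 1 liver.

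Of 14 hepatocyte transcription factors 5 fell, 9 were not called and none rose, with a median of -0.67. Counts of these factors were 0 higher and 3 lower without DT liver 1, 0 and 7 without DT liver 2 and 0 and 4 by limma-voom. Ppara, the fatty acid receptor that drives fat oxidation in the fasted liver, was at 256, 281, 251 and 312 CPM in saline livers and at 66.7, 106, 99.6 and 87.2 CPM in DT livers. The groups were far apart, and DT liver 2 did not stand out from the other DT livers. Ppara fell by 1.61 (SE 0.17, adjusted p = 0.00903). Cebpa, a factor of mature hepatocyte genes, was at 661, 643, 683 and 675 CPM in saline and 315, 474, 287 and 285 CPM in DT livers and fell by 0.97 (adjusted p = 0.0202). Nr5a2, which encodes the bile acid and steroid regulator LRH-1, fell by 0.70, and Nr1h4, which encodes the bile acid receptor FXR, fell by 0.85 (adjusted p = 0.0187 and 0.0383). Prox1, a factor of hepatocyte and lymphatic fate, fell by 0.63 (adjusted p = 0.0483) although DT livers and saline liver 3 overlapped. The calls of Nr1h4 and Prox1 ended after the GC correction (adjusted p = 0.0564 and 0.0569), and that of Prox1 also under total-count scaling (adjusted p = 0.261).

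Among 15 fatty acid oxidation genes, which include Ppara, 4 fell, 1 rose and 10 were not called, and 7 lay lower in all 4 DT livers (median -0.59). Of all genes tested, 11.1% lay lower in all 4. Fat oxidation counts were 0 higher and 3 lower without DT liver 1, 1 and 8 without DT liver 2 and 0 and 3 by limma-voom. Vnn1, a pantetheinase known as a PPAR-alpha target, was at 90.2, 144, 131 and 145 CPM in saline and 44.8, 64.6, 31 and 49.8 CPM in DT livers, all 4 below the saline range. It fell by 1.43 (SE 0.23), and the mitochondrial carnitine enzyme gene Cpt2 fell by 0.58 (adjusted p = 0.0188 and 0.0497, and 0.197 for Cpt2 under total-count scaling). Pdk4, a kinase that spares glucose, went the other way by 1.95 (adjusted p = 0.0303), with 6.08 CPM in DT liver 2 inside the saline range. Nudt7, a peroxisomal enzyme that degrades coenzyme A, had one of the 10 largest falls: it was at 172, 208, 236 and 314 CPM in saline and 27.4, 97.4, 36.4 and 29.7 CPM in DT livers (log2 fold change -2.28, adjusted p = 0.0195). Without 1 liver the adjusted p of Vnn1, Cpt2, Pdk4 and Nudt7 reached at most 0.142 (Cpt2, without DT liver 3). The 14 nuclear genes of oxidative phosphorylation were not called by edgeR (4 lower without DT liver 2, 1 by DESeq2, 2 at an unadjusted p under 0.05 by edgeR).

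Of 12 fatty acid synthesis genes, 3 fell and 9 were not called, with counts of 0 higher and 1 lower without DT liver 1, 0 and 5 without DT liver 2 and 0 and 3 by limma-voom. Scd1, the desaturase that makes oleate, was at 28144, 39696, 33360 and 27548 CPM in saline and 16006, 17735, 8703 and 15966 CPM in DT livers, all 4 below the saline range. It fell by 1.14 (SE 0.27, adjusted p = 0.0299), while its regulator Srebf1 was not called (-0.75, adjusted p = 0.228). Gpam, of glycerolipid synthesis, fell by 0.69 and the elongase gene Elovl5 by 0.71, and both ended under total-count scaling (adjusted p = 0.0654 and 0.159). Of 12 lipid droplet and uptake genes 2 fell and 2 rose, with counts of 2 higher and 1 lower without DT liver 1, 2 and 5 without DT liver 2 and 2 and 1 by limma-voom. The droplet coat gene Plin2 fell by 0.67 and the adipogenic factor Pparg by 0.70, whereas Plin5, a droplet coat of oxidative tissues, rose by 0.76 and Fabp4, a fatty acid carrier of fat cells, endothelium and macrophages, by 1.41. The calls of Pparg and Plin5 ended after the GC correction (adjusted p = 0.0721 and 0.0943) and those of Plin2 and Pparg under total-count scaling (adjusted p = 0.0992 and 0.148). Of 13 cholesterol genes 12 were not called (2 higher and 1 lower without DT liver 2).

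**Figure D4:**
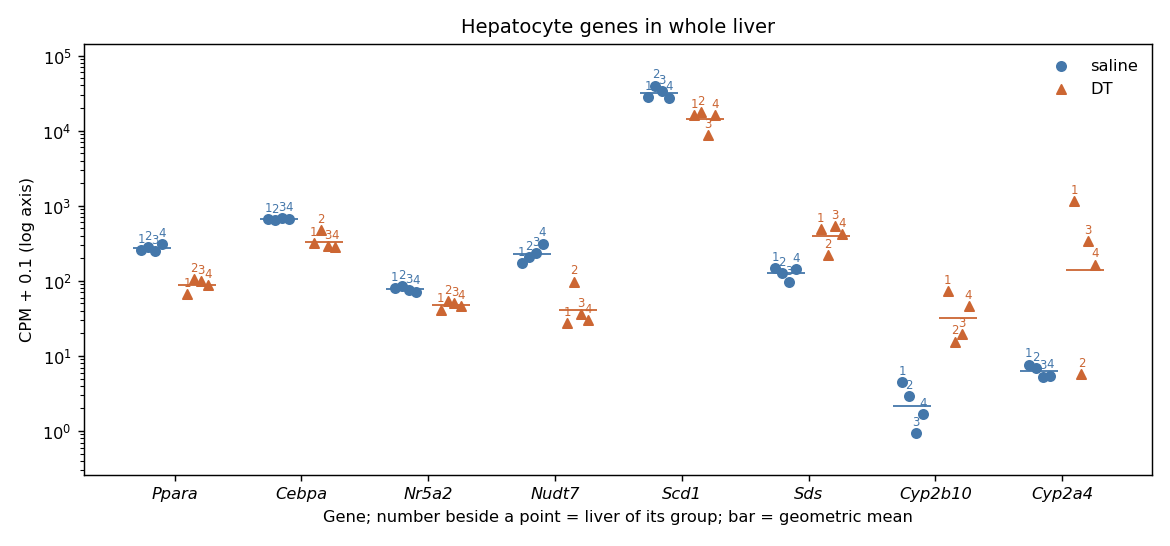
CPM + 0.1 on a log axis for 8 hepatocyte genes; circles are saline livers, triangles DT livers, numbers the liver within its group and bars geometric means. Ppara, Cebpa, Nr5a2, Nudt7 and Scd1 lie lower in all 4 DT livers, Sds and Cyp2b10 lie higher in all 4, and Cyp2a4 lies higher in DT livers 1, 3 and 4 only.

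Transport and drug metabolism changed in part. Of 13 bile acid and organic anion transporters, 3 fell, 2 rose and 8 were not called, and 7 lay lower in all 4 DT livers. The share of all genes tested that lay lower in all 4 was 11.1%. Transporter counts were 1 higher and 2 lower without DT liver 1, 2 and 9 without DT liver 2 and 1 and 4 by limma-voom, and with upper quartile factors or total-count scaling 1 gene was lower. The canalicular exporter gene Abcc2 was at 827, 848, 767 and 774 CPM in saline and 543, 548, 429 and 431 CPM in DT livers and fell by 0.72 (adjusted p = 0.0223, and 0.0586 after the GC correction). Abcc3 and the sterol exporter gene Abcg8 fell by 0.73 and 0.91 (adjusted p = 0.0381 and 0.0384, and 0.107 and 0.0516 under total-count scaling). Reads of Abcg8 and the adjoining Abcg5, which overlap on opposite strands, cannot be told apart there. The exporter gene Abcc4 rose by 2.28, with DT liver 2 inside the saline range, and the bile acid exporter subunit gene Slc51b by 1.92 at 1.07 to 2.94 CPM (adjusted p = 0.0391 and 0.0241). None of 12 bile acid synthesis genes was called by edgeR, with 5 lower without DT liver 2, 1 by limma-voom, 3 by DESeq2 and 4 at an unadjusted p under 0.05, and Cyp7a1, the rate-limiting enzyme, varied widely among saline livers (402, 97.6, 69.4 and 307 CPM).

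Of 14 drug-metabolizing cytochrome P450 genes, 2 rose, 12 were not called and none fell, although their median was -0.84. Of all genes tested, 9.51% rose and 4.96% fell. P450 counts were 2 higher and 0 lower without DT liver 1, 2 and 8 without DT liver 2 and 1 and 0 by limma-voom. Cyp2b10, the classic target of the xenobiotic receptor CAR, was at 4.42, 2.84, 0.839 and 1.58 CPM in saline and 72.3, 15.5, 19.3 and 45.9 CPM in DT livers, higher in all 4. It rose by 3.98 (SE 0.64, adjusted p = 0.0183). Cyp2a4, a testosterone hydroxylase that is higher in female mice, was at 7.59, 6.79, 5.21 and 5.38 CPM in saline and at 1158, 5.65, 341 and 164 CPM in DT livers, a rise of 6.06 (SE 1.25, adjusted p = 0.0228) with DT liver 2 inside the saline range. Near-identical copies of Cyp2a4 and Cyp2b10 may share reads with them. Cyp2e1, the microsomal alcohol-oxidizing enzyme, was at 12957, 12163, 10960 and 13859 CPM in saline and at 3263, 10043, 2054 and 2133 CPM in DT livers. All 4 DT values were lower, but DT liver 2 was close to the saline livers and Cyp2e1 was not called (-1.51, SE 0.50, adjusted p = 0.0695). It was called without DT liver 2 (-2.35, adjusted p = 0.000139).

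Both groups ate alcohol, and of 11 genes of alcohol and acetaldehyde metabolism, 3 fell, 1 rose and 7 were not called. Counts of alcohol genes were 0 higher and 1 lower without DT liver 1, 1 and 8 without DT liver 2 and 0 and 2 by limma-voom. Adh4, an alcohol dehydrogenase, fell by 1.41, the peroxide-degrading catalase gene Cat by 0.77 and the acetate-activating gene Acss2 by 0.57 (adjusted p = 0.0317, 0.0464 and 0.0365). The fall of Acss2 ended under total-count scaling (adjusted p = 0.146). With upper quartile factors the falls of Cat and Acss2 both ended (adjusted p = 0.0611 and 0.0636), and limma-voom did not call Cat (adjusted p = 0.0509). Reads of Gss, which overlaps Acss2 on the other strand, cannot be told apart there. The acetaldehyde-oxidizing gene Aldh1b1 rose by 1.61, with 65.5 CPM in DT liver 2, inside the saline range, and 335, 217 and 166 CPM in DT livers 1, 3 and 4 (adjusted p = 0.0338). Counts of periportal genes were 1 higher and 0 lower without DT liver 1, 5 and 2 without DT liver 2 and 1 and 0 by limma-voom. Over the 8 livers, 3 of 12 periportal genes rose, with Aldh1b1 counted again, 1 fell and 8 were not called. Among them Sds, which encodes serine dehydratase, was at 149, 127, 97 and 145 CPM in saline and 493, 222, 529.8 and 417 CPM in DT livers, higher in all 4 (log2 fold change 1.68, adjusted p = 0.0181), although reads of Plbd2, which overlaps Sds on the other strand, cannot be told apart there. Of 12 pericentral genes 1, the Wnt-responsive factor gene Tbx3, was called over the 8 livers, a fall of 1.22 (adjusted p = 0.0246). Pericentral counts were 0 higher and 1 lower without DT liver 1, 0 and 10 without DT liver 2 and 0 and 1 by limma-voom. None of 13 urea cycle and amino acid genes or 14 glucose genes was called by edgeR over the 8 livers. Without DT liver 2, 3 urea and amino acid genes were higher and 2 lower, as were 3 and 2 glucose genes (4 and 1 by DESeq2, 4 and 3 at an unadjusted p under 0.05). With 1 liver left out the adjusted p of Adh4, Cat, Acss2, Aldh1b1, Sds and Tbx3 reached at most 0.138 (Cat, without DT liver 3).

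Of 15 growth hormone, IGF and male-biased genes 2 rose, 2 fell and 11 were not called. Growth hormone list counts were 1 higher and 0 lower without DT liver 1, 2 and 7 without DT liver 2 and 0 and 3 by limma-voom. Igfbp1, an insulin-repressed binding protein, was at 28.5, 29.7, 32.1 and 26.2 CPM in saline and 263, 27.3, 177 and 160.4 CPM in DT livers, where DT liver 2 again lay with the saline livers (log2 fold change 2.43, adjusted p = 0.0252). Ghr, the growth hormone receptor, was at 522, 658, 595 and 632 CPM in saline and 94.8, 432, 179 and 217 CPM in DT livers and fell by 1.38 (SE 0.39, adjusted p = 0.0444, and 0.055 after the GC correction). The IGF-binding gene Igfbp3 rose by 1.23, a call that ended after the GC correction (adjusted p = 0.0456 and 0.0638). Igfals, a carrier of circulating IGF1, fell by 1.03, and Igf1 itself was not called (-0.70, adjusted p = 0.0648). The male-biased steroid gene Hsd3b5 was at 22.6, 65.7, 67.7 and 78.5 CPM in saline and 0, 22.6, 0.0605 and 0.0556 CPM in DT livers, and it was not called (adjusted p = 0.188), except by limma-voom (adjusted p = 0.0336) and without DT liver 2 (adjusted p = 0.000132).

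Genes of bile duct cells and ductular reaction, the spread of duct-like cells in injured liver, showed large rises in DT livers 1, 3 and 4, and the mean log2 CPM of the list in DT liver 2 was -0.07 from the saline mean. Of 14 genes 11 had enough counts to be tested: 9 rose, 2 were not called and none fell, with a median of 3.44. A gene passed the count minimum by reaching it in 4 livers, so the tested members favour genes that are high in 1 group, and 2 of the 3 untested members are given with the other observations. Krt19, a keratin of duct cells, was at 0.17, 0.304, 0.624 and 0.223 CPM in saline livers and at 12.5, 0.773, 7.5 and 10.3 CPM in DT livers. All 4 DT values were above the saline range, DT liver 2 by the least. Epcam, a duct and progenitor adhesion gene, was at 0.68, 0.781, 1.64 and 0.893 CPM in saline and 25.5, 0.773, 14.9 and 27.4 CPM in DT livers, and there DT liver 2 lay inside the saline range. Krt19 rose by 4.54 (SE 0.80), Epcam by 4.10 (SE 0.87) and Sox9, a factor of duct and progenitor cells, by 2.97 (SE 0.51, adjusted p = 0.0195, 0.0242 and 0.0194). Krt7 and Muc1 rose by 3.81 and 3.67. The summed level of the list was 62.0 to 104.3 CPM in saline livers and 60.2 to 561.9 CPM in DT livers. Duct gene counts were 7 higher and 0 lower without DT liver 1, 12 and 0 without DT liver 2 and 1 and 0 by limma-voom, with 14 tested without DT liver 2. Without 1 liver the adjusted p of Krt19, Epcam, Sox9, Krt7 and Muc1 reached at most 0.0853 (Epcam, without saline liver 2).

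Of 12 genes of fetal liver and progenitors 8 could be tested, 5 rose and 3 were not called (median 2.64). As in the duct list, the tested members favour genes that are high in 1 group, so these values do not stand for the whole list. Of the 4 untested members, named here after their values were seen, Lin28b had no count and Igf2 reached at most 0.242 CPM. Bex1 reached 0.836 CPM, in DT liver 1, and Igf2bp3 is given with the other observations. Fetal gene counts were 4 higher and 0 lower without DT liver 1, 8 and 0 without DT liver 2 and 1 and 0 by limma-voom, with 10 tested without DT liver 2. H19, an imprinted noncoding RNA that is abundant in fetal liver, had the largest rise among genes at a mean of 4 CPM or more whose groups did not overlap. It was at 0.0425, 0.217, 0.273 and 0 CPM in saline livers, at 535, 190.1 and 23.5 CPM in DT livers 1, 3 and 4, and at 0.30 CPM in DT liver 2, barely above the highest saline value. The fitted log2 fold change was 10.40 (SE 2.10, adjusted p = 0.0226), a value that rests on low saline counts, with none in saline liver 4. H19 also varied from 0.30 to 535 CPM among DT livers, and limma-voom did not call it (adjusted p = 0.403). Tff3, a mucosal repair peptide, was at 0.298, 0.0868, 0.234 and 0.223 CPM in saline and 6.14, 0.644, 16.5 and 18.4 CPM in DT livers and rose by 5.61 (adjusted p = 0.0192). Cd24a, a progenitor surface gene, rose by 2.81 and Sox4 by 2.47 (adjusted p = 0.0258 and 0.0468, and 0.0503 for Sox4 after the GC correction), and Sox4 was at 1.33 CPM in DT liver 2, below every saline liver. Dlk1, an imprinted fetal gene, had no count in 3 saline livers and was at 0.039 CPM, below the level of 3 counts, in saline liver 3, against 0.418, 0.215, 0.514 and 2.56 CPM in DT livers. The oncofetal proteoglycan gene Gpc3 was not called (1.79, adjusted p = 0.0609).

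The 10 largest rises without overlap at 4 CPM or more also included matrix and membrane genes. Lamc3, a laminin chain of basement membranes, rose by 4.80, and Svep1 and Spon1, extracellular adhesion proteins, by 4.54 and 4.32. Lamc3 was at 1.7, 1.58, 2.58 and 1.41 CPM in saline and 75, 2.81, 45.8 and 79.5 CPM in DT livers, so DT liver 2 was the lowest of the 4 and just above the saline livers. The metalloprotease gene Adam33, the epithelial serine protease gene St14 and the membrane dipeptidase gene Dpep1 rose by 4.94, 4.30 and 4.17 (adjusted p = 0.0186, 0.0195 and 0.0146). Among the largest falls that are not Kupffer cell markers were the interferon-inducible GTPase gene Gbp2b (-3.23), the lectin-like gene Clec2h (-2.90), the RNA exonuclease gene Pnldc1 (-2.32) and the arrestin-like gene Arrdc3 (-2.23). Gbp2b was at 11.9, 12.9, 8.92 and 14 CPM in saline and 1.98, 0.73, 0.166 and 2.17 CPM in DT livers, and Clec2h was at 16.7, 16.7, 10.5 and 6.47 and 2.56, 1.48, 1.86 and 0.835 CPM, with no overlap for either. Gbp2b has close copies that may share its reads. The Pnldc1 call ended after the GC correction (adjusted p = 0.051).

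Stellate cells, the pericytes of the sinusoid that turn into matrix-making myofibroblasts, were followed by 12 genes of resting or general stellate cells and 12 of myofibroblasts, 10 of them tested. Of the former 5 rose and 7 were not called, and Lrat and Reln, defining genes of resting stellate cells named here after their values were seen, differed by -0.13 and -0.35 (adjusted p = 0.526 and 0.221), and the sign of Lrat changed under total-count scaling. Of the latter 8 rose and 2 were not called (median 2.63). Stellate counts were 3 higher and 0 lower without DT liver 1, 5 and 2 without DT liver 2 and 2 and 1 by limma-voom, and myofibroblast counts 7 higher and 0 lower without DT liver 1, 9 and 0 without DT liver 2 and 3 and 0 by limma-voom. Acta2, the smooth muscle actin of myofibroblasts and vessel walls, was at 0.638, 0.825, 1.64 and 0.893 CPM in saline and 10.8, 10.2, 5.72 and 2.42 CPM in DT livers. DT liver 2 was among the highest here, and the contractile genes Myl9 and Tagln had the same order, with DT liver 4 the lowest of the DT livers and, for Tagln, inside the saline range. Acta2 rose by 2.86 (SE 0.50, adjusted p = 0.0195) and Myl9 by 1.95 (adjusted p = 0.0244). Mfap4, a fibril-associated protein, was at 0.34, 0.391, 1.25 and 0.58 CPM in saline and 18.7, 3.31, 9.74 and 12.7 CPM in DT livers and rose by 4.11 (adjusted p = 0.0145), though it overlaps Mapk7 on the other strand. The growth factor receptor genes Pdgfra and Pdgfrb rose by 2.72 and 2.08, with DT liver 2 at 7.64 and 10.4 CPM, against 57.9, 44.8 and 56.8 CPM for Pdgfra and 48.6, 33.8 and 44.3 CPM for Pdgfrb in DT livers 1, 3 and 4.

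Many genes of the matrix itself rose. Of 15 genes of elastic fibres, proteoglycans and crosslinking, 13 rose and 2 were not called (median 2.06), of 14 collagens 9 rose and 5 were not called (median 1.62), and of 15 proteases and inhibitors 6 rose and 9 were not called. Eln, which encodes elastin, was at 1.49, 1.3, 2.42 and 1.56 CPM in saline and 37.3, 6.55, 24 and 30.6 CPM in DT livers, higher in all 4 and lowest in DT liver 2. It rose by 3.86 (SE 0.50, adjusted p = 0.0122), and the fibulin genes Fbln1 and Fbln5 rose by 3.77 and 2.46 (adjusted p = 0.0186 and 0.0152). Of the collagens, Col1a1, the main fibril chain of scar, was at 7.14, 5.95, 15.9 and 8.21 CPM in saline and 76.1, 11.5, 81.7 and 98.9 CPM in DT livers, with DT liver 2 inside the saline range. Col6a1, Col6a2 and Col6a3, chains of the microfibrils around cells, rose by 2.41, 2.93 and 3.09 (adjusted p = 0.0195, 0.0195 and 0.0215). The gelatinase gene Mmp2 rose by 3.33, the plasminogen activator gene Plat by 4.99 and the inhibitor gene Timp2 by 2.28 (adjusted p = 0.022, 0.0195 and 0.0195). Elastic fibre counts were 7 higher and 0 lower without DT liver 1, 13 and 1 without DT liver 2 and 4 and 0 by limma-voom. Collagen counts were 5 higher and 0 lower without DT liver 1, 12 and 0 without DT liver 2 and 2 and 0 by limma-voom, and protease counts 5 higher and 0 lower without DT liver 1, 8 and 0 without DT liver 2 and 1 and 0 by limma-voom. With 1 liver left out the adjusted p of Eln, Fbln1, Fbln5, Col1a1, Col6a1, Mmp2 and Plat reached at most 0.0832 (Col1a1, without saline liver 2).

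Of 15 TGF-beta pathway genes, 5 rose, 10 were not called and none fell over the 8 livers. TGF-beta counts were 4 higher and 0 lower without DT liver 1, 9 and 1 without DT liver 2 and 1 and 1 by limma-voom. The ligand genes Tgfb3 and Tgfb2 rose by 2.94 and 3.34, and the latent binding protein genes Ltbp1 and Ltbp2 by 1.94 and 3.44 (adjusted p = 0.0195, 0.0212, 0.0239 and 0.0241). Tgfb3 was at 0.723, 0.586, 1.56 and 0.536 CPM in saline and 8.49, 1.89, 7.75 and 8.17 CPM in DT livers, all 4 above the saline range. Of 12 targets and factors of YAP, a regulator of growth that responds to tissue stiffness, 5 rose and 7 were not called (median 0.26). YAP counts were 4 higher and 0 lower without DT liver 1, 7 and 1 without DT liver 2 and 1 and 0 by limma-voom. Ccn2, a matrix-associated YAP and TGF-beta target, was at 7.36, 9.13, 15.7 and 7.99 CPM in saline and 30.5, 15.3, 68.5 and 58.4 CPM in DT livers, and it rose by 2.10 (adjusted p = 0.0245). DT liver 2 overlapped the saline livers for Ccn2. Tead4 and Ptpn14 rose by 1.85 and 2.04 (adjusted p = 0.0195 and 0.028).

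Of 12 genes of sinusoidal endothelium 2 fell and none rose, with counts of 0 higher and 2 lower without DT liver 1, 1 and 6 without DT liver 2 and 0 and 2 by limma-voom (median -0.30, and 0.03 under total-count scaling). Kdr, which encodes the VEGF receptor 2, was at 84.1, 84.6, 71.1 and 85.1 CPM in saline and 61.9, 55.6, 56.1 and 49 CPM in DT livers, with no overlap, and Oit3 fell as well (-0.55 and -0.49, adjusted p = 0.0228 and 0.0297). Both calls ended under total-count scaling (adjusted p = 0.208 and 0.298). Of 9 tested genes of capillary and arterial endothelium 3 rose and 6 were not called, with counts of 3 higher and 0 lower without DT liver 1, 4 and 0 without DT liver 2 and 2 and 0 by limma-voom. Vwf, of clotting and of capillary-like endothelium, was at 8.8, 7.16, 8.58 and 6.83 CPM in saline and 26.4, 13.9, 22.5 and 25.6 CPM in DT livers and rose by 1.49 (SE 0.21, adjusted p = 0.014). Cd34, also found on mesenchymal and progenitor cells, rose by 2.83 (adjusted p = 0.021), with 2.06 CPM in DT liver 2 inside the saline range. The pan-endothelial gene Cdh5 was not called (-0.30, adjusted p = 0.103) and changed sign under total-count scaling.

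Of 20 cell cycle genes 19 were tested: 10 rose, 9 were not called and none fell (median 1.61). Many promoters of genes of late cell cycle hold the element TTTGAA, the cell cycle genes homology region (CHR). The 200 bases before the start of 3 of the mitotic genes that rose are shown because they hold these letters. Sequences and starts are from RefSeq, build GRCm38.p6, written 5′ to 3′ on the strand of the gene, with each match in capitals. Coordinates are of that build, not of the GRCm39 build of the counts. All 3 lie on the minus strand: Cdk1 at chr10:69352913-69353112, Cdc20 at chr4:118437344-118437543 and Ccnb2 at chr9:70421555-70421754.
Cdk1: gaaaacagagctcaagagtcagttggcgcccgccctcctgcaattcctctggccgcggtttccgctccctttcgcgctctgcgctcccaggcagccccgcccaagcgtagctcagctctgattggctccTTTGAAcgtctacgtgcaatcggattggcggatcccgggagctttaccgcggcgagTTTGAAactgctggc
Cdc20: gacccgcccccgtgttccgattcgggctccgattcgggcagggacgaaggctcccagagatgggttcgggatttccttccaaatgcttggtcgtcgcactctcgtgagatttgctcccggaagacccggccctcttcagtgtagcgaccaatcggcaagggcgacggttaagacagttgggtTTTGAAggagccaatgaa
Ccnb2: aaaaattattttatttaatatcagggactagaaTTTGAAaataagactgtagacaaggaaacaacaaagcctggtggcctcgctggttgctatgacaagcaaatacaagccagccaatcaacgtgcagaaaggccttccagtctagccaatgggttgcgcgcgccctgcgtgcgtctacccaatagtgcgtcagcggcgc
In windows from 250 bases before to 50 bases after the start, TTTGAA was present on either strand in 8 of the 15 list genes that had a promoter in the table, in 5 of the 7 of these that rose, in 20.2% of 27025 genes with a promoter in the table and in 17.9% of 32851 promoters. A match of letters is a description and not a bound site.

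Cdk1, the kinase that starts mitosis, was at 0.765, 1.02, 0.78 and 0.447 CPM in saline and 7.71, 0.902, 3.21 and 3.56 CPM in DT livers, where DT liver 2 lay inside the saline range. It rose by 2.35 (SE 0.57, adjusted p = 0.0318), the cyclin gene Ccnb2 by 2.96 (adjusted p = 0.0246) and Cdc20, an activator of the anaphase complex named here after its values were seen and overlapped on the other strand by Elovl1, by 2.96 (adjusted p = 0.0336). Levels were low: Ccnb2 was at 0.383, 0.391, 0.702 and 0.447 CPM in saline and 7.42, 0.644, 3.95 and 3.02 CPM in DT livers, and Cdc20 was at 1.06, 0.304, 1.17 and 0.268 and 11.3, 1.03, 5.33 and 4.26 CPM. The mitotic kinase gene Aurka and the mitotic factor gene Foxm1 rose by 2.09 and 2.47 (adjusted p = 0.0262 and 0.0301). DT liver 1 was the highest of the DT livers for Cdk1, Ccnb2, Cdc20, Aurka and Foxm1. Cell cycle counts were 2 higher and 0 lower without DT liver 1, 15 and 0 without DT liver 2 and 0 and 0 by limma-voom. With 1 liver left out the adjusted p of these 5 reached at most 0.0988 (Cdc20, without saline liver 2).

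Of 14 p53 targets 3 rose and 11 were not called. Counts of p53 targets were 1 higher and 0 lower without DT liver 1, 7 and 1 without DT liver 2 and 1 and 0 by limma-voom. Cdkn1a, which encodes the cell cycle inhibitor p21, was at 1.85, 2.15, 10.4 and 1.76 CPM in saline and 47.5, 22.7, 64.1 and 152 CPM in DT livers, and all 4 DT livers were above the saline range. It rose by 4.14 (SE 0.79, adjusted p = 0.0197), Phlda3 by 2.31 and Btg2 by 2.23, the latter 2 with DT liver 2 inside the saline range. Of 14 ER and integrated stress genes 1, Atf3, was called (2.15, adjusted p = 0.0284), with counts of 1 higher and 0 lower without DT liver 1, 2 and 2 without DT liver 2 and 0 and 0 by limma-voom. Of 12 antioxidant genes of the NRF2 pathway, the carbonyl reductase gene Cbr3, the glutathione transferase gene Gsta1 and the cystine carrier gene Slc7a11 rose (2.44, 3.55 and 2.33, adjusted p = 0.0195, 0.0255 and 0.0438) and 9 were not called; Gsta1 has a near-identical copy that may share its reads. NRF2 counts were 2 higher and 0 lower without DT liver 1, 6 and 1 without DT liver 2 and 1 and 0 by limma-voom. Of 12 annexin, S100 and related genes of reactive epithelium and mesenchyme, 7 rose, among them S100a6 by 2.03, Anxa1 by 1.31 and Vim by 1.81. Annexin list counts were 3 higher and 0 lower without DT liver 1, 10 and 0 without DT liver 2 and 3 and 0 by limma-voom.

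In the liver clock the pair CLOCK and BMAL1 (gene Arntl), or NPAS2 and BMAL1, binds E-boxes (CACGTG) and drives Dbp, Tef, Per and Nr1d genes, the NR1D proteins repress Arntl and Npas2, and DBP and TEF bind D-boxes (TTATGTAA). Of 13 genes, 2 rose, 4 fell and 7 were not called, and 3 lay higher and 5 lower in all 4 DT livers. The shares of all genes tested that lay higher and lower in all 4 were 8.73% and 11.1%. Clock counts were 2 higher and 1 lower without DT liver 1, 3 and 4 without DT liver 2 and 2 and 3 by limma-voom. The 200 bases before the start of 2 genes that fell are shown for these elements, in capitals, from RefSeq, build GRCm38.p6, 5′ to 3′ on the strand of the gene: a D-box before Per3 (minus strand, chr4:151044666-151044865) and an E-box before Tef (plus strand, chr15:81802473-81802672).
Per3: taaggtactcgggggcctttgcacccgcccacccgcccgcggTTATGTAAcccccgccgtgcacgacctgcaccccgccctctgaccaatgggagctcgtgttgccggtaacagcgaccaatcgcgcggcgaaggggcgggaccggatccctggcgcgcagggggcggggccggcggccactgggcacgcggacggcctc
Tef: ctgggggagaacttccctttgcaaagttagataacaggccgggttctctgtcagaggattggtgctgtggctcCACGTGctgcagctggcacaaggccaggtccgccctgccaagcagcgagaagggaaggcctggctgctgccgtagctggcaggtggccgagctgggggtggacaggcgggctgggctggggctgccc
In windows from 250 bases before to 50 after the start, the E-box was present in 4 of the 12 list genes with a promoter in the table, in 1 of the 6 of these that changed (Tef) and in 8.09% of all genes (7.15% of promoters). The D-box, on either strand, was present in 1 of 12, in 1 of the 6 that changed (Per3) and in 1.11% of all genes (0.938% of promoters).

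Npas2 was at 1.87, 0.868, 0.741 and 0.536 CPM in saline and 6.85, 4.59, 4.57 and 17.6 CPM in DT livers, and Arntl at 6.95, 3.43, 2.59 and 2.08 and 23.5, 7.99, 12 and 29.7 CPM, both higher in all 4 DT livers. They rose by 3.06 and 2.28 (adjusted p = 0.0195 and 0.025). Dbp was at 138, 156, 148 and 175 CPM in saline and at 30.4, 56.4, 47 and 3.92 CPM in DT livers, lowest in DT liver 4, which also had the highest Npas2 and Arntl. Dbp fell by 2.16, Nr1d2 by 1.07, Per3 by 1.31 and Tef by 0.92 (adjusted p = 0.0447, 0.0195, 0.0385 and 0.0356, and 0.0548 under total-count scaling for Tef). DT liver 2 took part in all 6 changes. Sphk2 overlaps Dbp on the other strand over 539 bases, so reads there cannot be told apart. The hour of harvest of each group is not stated, and harvest hour and DT therefore cannot be told apart for these genes. The adjusted p of the 6 reached at most 0.106 (Dbp, without saline liver 4) with 1 liver left out.

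**Figure D5:**
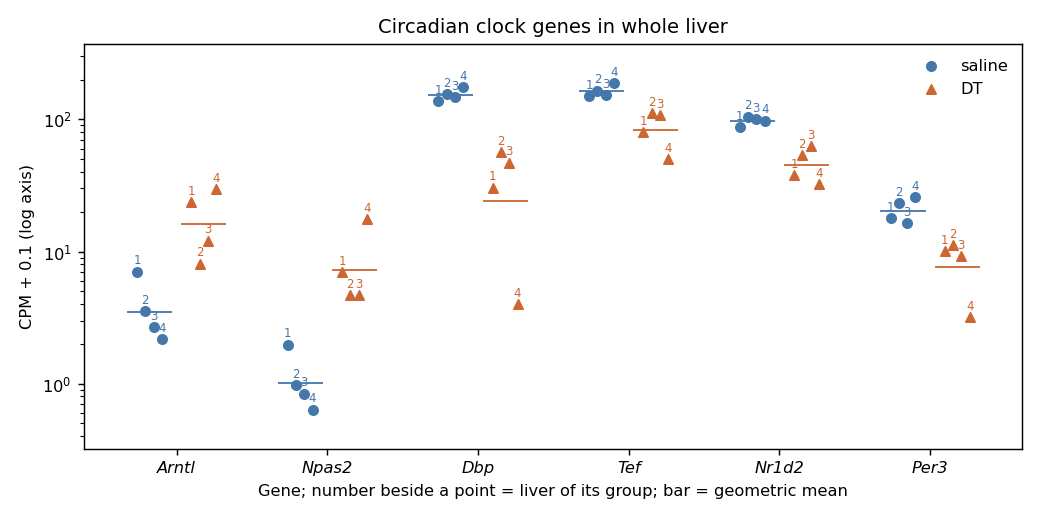
CPM + 0.1 on a log axis for 6 circadian genes; circles are saline livers, triangles DT livers, numbers the liver within its group and bars geometric means. Arntl and Npas2 lie higher, and Dbp, Tef, Nr1d2 and Per3 lower, in all 4 DT livers.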

How the data were processed

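Polyadenylated RNA of whole liver was sequenced, and 4 DT and 4 saline libraries were used here; the 3 chow libraries entered 1 alternative fit only. Per the submitters' processing notes, the tools were FastQC, STAR and featureCounts with build GRCm39; their versions, the gene annotation, the handling of strand and of paired mates are not given in the sources used here. The authors deposited whole-number read counts for 55414 Ensembl genes, with no normalization. Low counts were even in 74.9% to 80.8% of cases, so both mates of a pair may have been counted, and halved counts were tried.

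Genes were kept with edgeR's filterByExpr, scaled by TMM and tested by edgeR's quasi-likelihood test (edgeR 4.0.16, R 4.3.3) on the 8 libraries with group as the only term, which left 6 residual degrees of freedom, at a common biological coefficient of variation of 31.5%. Log2 CPM used a prior count of 2. p-values were adjusted by Benjamini-Hochberg over all genes tested. Alternatives were DESeq2 1.42.0, limma-voom (limma 3.58.1), other scaling, filters, a GC correction by loess and leaving out each library. On simulated counts with 15512 genes tested, the fit called 41% of 96 genes changed 2-fold and 69% of 99 genes changed 4-fold, with 6 false calls. There, genes were drawn independently, few were changed, and each changed gene had the same change in all DT livers. The real DT livers differed from each other, with DT liver 2 apart, so these rates may not hold for the calls above.

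The comparison, the members and the 53 gene lists were chosen with earlier results of these data known. Named genes are the 6 with the smallest p in each list, the 10 largest rises and 10 largest falls among called genes without overlap at a mean of 4 CPM or more, and the 10 smallest p; Clec4f, Alb and Ppara could be named in any case, and others are stated to be chosen after their values were seen. Promoters are from RefSeq. Some genes that the naming rule allows are not reported here.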

Additional observations from a re-analysis of the deposited data

Results flagged for a closer look

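Within each group of 4 livers, the highest or lowest value was set against the nearest other by Dixon's ratio (genes on the log2(CPM + 0.1) scale), with a critical value of 0.829. Of 402 groups tested over the genes named here and the lists, 48 passed it, and chance passes about 5%. The values of genes share 8 livers and are not independent.

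DT liver 2 stood apart from the other DT livers for 21 genes, lower in 20 of them. Its CPM were 2.66 for Cd14 (others 10.6 to 13.9), 8.97 for Cd63 (others 53.4 to 61.7), 3.8 for Itgax (others 20.8 to 26.5) and 17.6 for Igfbp3 (others 45.9 to 50.6). Further values in that liver were 22.6 for Hsd3b5 (others 0 to 0.0605), 0.859 for Muc1 (others 8.56 to 13.3), 1.33 for Sox4 (others 19.8 to 30.1) and 2.81 for Lamc3 (others 45.8 to 79.5). The same liver had CPM of 1.03 for Svep1 (others 15.2 to 21.3), 0.988 for St14 (others 11.6 to 16.5), 7.64 for Pdgfra (others 44.8 to 57.9) and 6.78 for Fbln5 (others 21.9 to 25.5). Among other genes its CPM were 11.5 for Col1a1 (others 76.1 to 98.9), 13.5 for Col6a1 (others 52.9 to 63.6), 3.43 for Mmp2 (others 27.4 to 41.6) and 1.89 for Tgfb3 (others 7.75 to 8.49). It also stood apart at 3.31 for Ltbp1 (others 12.7 to 14.1), 1.29 for Ltbp2 (others 12.2 to 13.6), 3.43 for Ptpn14 (others 17.2 to 23) and 2.06 for Cd34 (others 12.6 to 15.4). Values in it also included 26.1 for Vim (others 88.3 to 108). Its mean log2 CPM from the saline mean also stood apart for 7 lists. The list values were -0.20 for the list of general macrophages and monocytes (others 0.80 to 0.99), -0.35 for the list of dendritic cells (others 1.36 to 1.55), -0.016 for the list of capillary and arterial endothelium (others 0.86 to 0.97) and 0.62 for the list of fetal liver and progenitor genes (others 3.52 to 3.74). The rest were 0.14 for the list of fibrillar and other collagens (others 1.83 to 2.06), 0.49 for the list of elastic fibres, proteoglycans and crosslinking (others 2.37 to 2.57) and 0.13 for the list of TGF-beta pathway (others 1.07 to 1.19).

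Other livers stood apart for fewer values. In saline liver 1 the CPM were 95.7 for Nr1h3 (others 102 to 103), 22.6 for Hsd3b5 (others 65.7 to 78.5) and 139.7 for Arrdc3 (others 241 to 260.3). In saline liver 1 the mean log2 CPM of a list, from the saline mean, was 0.25 for the list of pericentral hepatocytes (others -0.12 to -0.054). In saline liver 4 the CPM were 26.1 for Adgre1 (others 34.1 to 34.3) and 785 for Igf1 (others 583 to 613). In saline liver 3 the CPM were 41.1 for Spp1 (others 17.2 to 19.1), 0.039 for Dlk1 (others 0 to 0), 0.663 for Plat (others 0.213 to 0.223), 71.1 for Kdr (others 84.1 to 85.1) and 10.4 for Cdkn1a (others 1.76 to 2.15). In saline liver 3 the mean log2 CPM of a list, from the saline mean, was 0.50 for the list of cholangiocytes and ductular reaction (others -0.20 to -0.12) and 0.23 for the list of pancreas and gut contamination (others -0.099 to -0.045). In saline liver 2 the CPM were 0.825 for Dpep1 (others 0.553 to 0.585). In DT liver 1 the CPM were 33.3 for Mrc1 (others 57.2 to 58.6), 5.3 for Ccl21a (others 1.33 to 1.47) and 239 for Igf1 (others 429 to 474). In DT liver 3 the CPM were 8703 for Scd1 (others 15966 to 17735). In DT liver 4 the CPM were 3.1 for Per3 (others 9.18 to 11). In DT liver 4 the mean log2 CPM of a list, from the saline mean, was -1.51 for the list of red blood cell contents (others -0.87 to -0.77). No explanation of these values was tested.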

How the results depend on the processing

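The sensitivity of the 2303 calls was large. In every refit without 1 liver all 2303 kept their sign, but each refit shares most livers with the fit that selected these genes. The kept sign therefore does not test their direction. Counts without 1 liver ranged from 0 to 6063 in all, from 0 to 3574 for genes higher and from 0 to 2489 for genes lower after DT. Other filters, RLE factors, halved counts and the GC correction gave 1665 to 2297 calls. Upper quartile factors left 506 genes lower. Total-count scaling gave 3757 calls (3493 higher, 264 lower), all 11 libraries in 1 fit 3734 (2436 and 1298) and DESeq2 3825 (2475 and 1350). limma-voom gave 1221 calls with 565 higher, and with sample weights 7784 (4121 and 3663). Against a minimum log2 fold change of 1 no gene was called (0 higher, 0 lower), with a smallest adjusted p of 0.108 and 1241 genes at an unadjusted p under 0.05 in edgeR's test. Of the 132 called genes named in the text, calls ended for 14 after the GC correction, 16 under total-count scaling, 11 with upper quartile factors, 62 by limma-voom and 0 by DESeq2. The cause of these differences was not tested.

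With the replicate number as a replicate block 1255 genes were called (806 higher, 449 lower). Same-numbered livers of the 2 groups had correlations of 0.094, 0.18, 0.187 and -0.195 between their deviations from the group means, so the numbers were not taken to pair the livers.

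Before TMM scaling 3 counts corresponded to at most 0.0606 CPM, and scaled values near that level rest on few counts and are limited by depth.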

Other observations

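Some list genes lay under the count minimum for testing because fewer than 4 livers reached it. Values for 5 of them, chosen after they were seen, were high in DT livers 1, 3 and 4 and low in DT liver 2 and the saline livers. The tight junction gene Cldn4, expressed by bile duct cells, reached 6.78, 0.172, 3.39 and 8.15 CPM across DT livers 1 to 4 and stayed at or below 0.085 CPM in saline livers. The duct chloride channel gene Cftr was at 1.29, 0, 1.77 and 3.78 CPM, against at most 0.117 CPM in saline livers. Igf2bp3, a fetal RNA-binding protein, was at 5.06, 0, 5.87 and 2.91 CPM, and Ankrd1, a YAP target, was at 4.03, 0.172, 3.39 and 6.66 CPM, where saline livers reached 0.117 and 0.089 CPM. Vil1, a microvillus protein of gut and duct epithelium, was at 2.96, 0.043, 2.63 and 2.49 CPM, against at most 0.179 CPM. These genes were not tested between the groups.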
